A study of Mus musculus with 8 samples.

Results

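The semaphorins, neuropilins and plexins are the ligands, co-receptors and receptors of a guidance system for growing axons, and 31 mouse genes of these families were followed here. Members were all probes, other than control spots, whose RefSeq accession belongs to a gene of the list. The list held 20 semaphorins read by 24 probes, 2 neuropilins read by 3 probes and 9 plexins read by 12 probes, so 39 of the 55681 probes on the array. Of the 31 genes, 25 were bright enough to be tested, among 26262 features tested in all.

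Semaphorins are secreted (class 3), membrane-spanning (classes 4 to 6) or tethered by a lipid anchor (class 7). Class 3 semaphorins act through a complex of a neuropilin, which binds the ligand, and a class A plexin, which signals into the cell. Most other classes bind plexins directly. Plexins act on small GTPases and the cytoskeleton, and growth cones then collapse, turn or extend. In the sympathetic lineage, from which neuroblastoma arises, this system is known for steering migrating neural crest cells and sympathetic axons.

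The cells were the mouse neuroblastoma line N18TG2 and a derivative, the 2/4 clone, which expresses ChAT, the choline acetyltransferase of cholinergic neurons. The clone with 1 µM all-trans retinoic acid (RA, a vitamin A derivative used to differentiate neuroblastoma cells), the clone untreated, parental N18TG2 cells with RA and parental cells untreated each had 2 one-colour arrays. During RA treatment the medium had 1% serum in place of the usual 10%. Cultures of the clone received 200 µg/mL of the selection drug G418. The clone is a single clone, so what is given here as a difference of the clone holds for that isolate. How long RA was applied, and in which medium untreated cells were held, is not given in the labels. Lower serum may thus accompany RA, and G418 accompanies the clone. Whether replicate arrays represent independent cultures is not stated either, and p-values then measure only the spread between these samples, which may be technical.

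All 8 arrays lay on 1 slide. One row of it held parental cells with RA and the untreated clone, and the other held untreated parental cells and the clone with RA. Row and group therefore cannot be told apart in comparisons within a line, within a treatment or of the RA differences between lines, and row cancels only in differences averaged over treatments or over lines. The 75th percentile of intensity ran from 264.8 to 1264 between arrays. The share of probes well above background was 47.8% to 62.8% on 7 arrays and 71.8% on replicate 1 of the clone with RA, whose correlation with replicate 2 was 0.962, against 0.983 to 0.987 between the arrays of the other groups. The labels' extraction protocol names hippocampus, but all 15 neuroblast markers were above background in every group and the hippocampal genes Prox1, Neurod6 and Fezf2 in none. Cyp26b1, an RA-degrading enzyme induced by RA, read 5.60 and 7.26 in the clone with RA, 0.42 and -0.31 in the untreated clone, 5.67 and 6.36 in parental cells with RA and 0.93 and 0.23 in untreated parental cells. RA raised Cyp26b1 in both lines (limma adjusted p = 0.0117 for the clone, 0.0156 for parental cells). It was 1 of 10 genes listed to check the RA response, of which 9 were tested. In the clone 3 were higher and 1 lower with RA (adjusted p below 0.05), where 2.58% and 2.05% of all features were. In parental cells 4 were higher and 1 lower, where 0.529% and 0.59% were. Stra6 was the lower gene in both lines. It read -2.09 and -1.41 in the clone with RA against 1.26 and 1.11 untreated. In parental cells it read -6.19 and -4.87 against -1.02 and -0.90.

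Levels here are log2 intensities relative to the 75th percentile of the same array, so 0 is that percentile, and a difference of 1 is a 2-fold difference. Each probe has its own brightness, so levels are compared between groups and never between genes. Differences are given as log2 ± standard error (SE) from a limma fit over all features with 2 arrays per group, and a gene was called where the Benjamini-Hochberg adjusted p over all 26262 features was below 0.05. RNA was taken from whole cultures, in which fewer cells of a type and less RNA per cell cannot be told apart.

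Of the 25 tested members, 21 were well above background on all 8 arrays. Sema4f and Plxnb1 were above it on 7 arrays, missing on 1 of the 2 untreated parental arrays, Plxnb3 was above it on 4 and the tested probe of Sema3a on 2. The other 6 members were not tested. Sema3e, Sema5a and Sema5b were above background on 0 arrays, Sema3c and Sema3d only on replicate 1 of the clone with RA, the array that stood apart, and Plxna2 only on replicate 1 of the untreated parental cells. Sema3d, Sema3a, Sema3e and Sema3c lie on 1 chromosome in that order, with 0, 3 and 15 protein-coding genes between neighbours, and over all its probes none of them was read on more than 3 arrays. Sema3b and Sema3f, with 3 protein-coding genes between them, were read on all 8.

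Promoter windows of 300 bases around an annotated start were available from RefSeq (GRCm38.p6) for 26 of the 31 members, 37 windows in all. The 3 shown were chosen because their genes carry the comparisons below. Sema4f had the largest clone difference of the members, Sema4g had the next largest of the class 4 semaphorins and Nrp1 had the largest RA difference. In the first, capitals mark the nuclear receptor half-site AGGTCA, which retinoid receptors can bind, in the second the CCAAT box and in the third the GC box GGGCGG, each on either strand, so that a match on the opposite strand reads as the reverse complement.
Nrp1, chr8:128358823-128359122, plus strand: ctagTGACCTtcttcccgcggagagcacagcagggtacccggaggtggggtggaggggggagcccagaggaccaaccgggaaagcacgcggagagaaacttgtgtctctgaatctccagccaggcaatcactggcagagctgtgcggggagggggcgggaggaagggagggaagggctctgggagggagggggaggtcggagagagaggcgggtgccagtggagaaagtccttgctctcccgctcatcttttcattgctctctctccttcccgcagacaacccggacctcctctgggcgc
Sema4f, chr6:82939720-82940019, minus strand: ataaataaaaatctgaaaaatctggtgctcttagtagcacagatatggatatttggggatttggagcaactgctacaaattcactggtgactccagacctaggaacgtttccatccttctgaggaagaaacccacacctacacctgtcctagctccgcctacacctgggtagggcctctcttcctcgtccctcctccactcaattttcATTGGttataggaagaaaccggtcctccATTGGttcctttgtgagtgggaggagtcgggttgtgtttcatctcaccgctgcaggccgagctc
Sema4g, chr19:44989094-44989393, plus strand: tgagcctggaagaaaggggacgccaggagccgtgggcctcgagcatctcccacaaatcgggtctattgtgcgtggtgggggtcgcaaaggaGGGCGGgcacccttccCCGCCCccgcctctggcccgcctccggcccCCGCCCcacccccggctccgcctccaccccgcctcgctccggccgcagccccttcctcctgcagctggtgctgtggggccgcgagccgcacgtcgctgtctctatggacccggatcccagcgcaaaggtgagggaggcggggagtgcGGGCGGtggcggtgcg
The Nrp1 window held 1 half-site and 1 GC box, which is not marked, the Sema4f window 2 CCAAT boxes and no GC box, and the Sema4g window 4 GC boxes. The half-site was in 18.9% of the members' windows and in 16.3% of all 32851 windows in the table. The GC box was in 73.0% of the members' windows and 35.7% of all windows, and the CCAAT box in 18.9% and 37.4%. Matches of 2 of these motifs overlapped in 1 of the 37 windows. A match is a run of letters, not a measured binding site.

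Set against parental cells, the 2/4 clone had higher levels of 6 semaphorins, Nrp1 and 4 plexins with RA, and of 5 of those semaphorins and 1 of those plexins, Plxnb1, untreated. With RA, 11 of the 25 tested members were higher in the clone and 1 was lower, where 12.9% of all features were called higher and 10.2% lower. Untreated, 6 were higher and limma called 0 lower, where 6.13% of all features were called higher and 3.69% lower. At an unadjusted p below 0.05, 3 members were lower in the untreated clone, namely Nrp1, Plxnc1 and Plxnd1, as were 2394 of all 26262 features. All 6 of the untreated calls were also among the 11 with RA, which is 54.5% of the longer list. How many of all features were called in both comparisons is not given. The 2 comparisons share no arrays but share the estimate of the spread. The median difference over the tested members was 1.07 with RA and 0.46 untreated, against 0.11 over all features in both comparisons. Averaged over the treatments, 10 members were higher in the clone and 1 was lower, where 16.1% of all features were called higher and 11.6% lower.

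Sema4f kept its untreated call in all 16 alternatives run for it, while the other 5 members lost theirs with no filter on dim probes and without either untreated clone array. With RA, the calls of Sema3b, Sema4b, Sema4f, Sema4g and Plxna4 held in every alternative run. Those of Sema3f, Sema4a and Nrp1 ended in 1 alternative, the fit of only the 2 groups compared, and that of Plxnb2 in 4 of 17, which were that fit and the fits without replicate 2 of the clone with RA or without either parental array with RA.

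**Figure D1:**
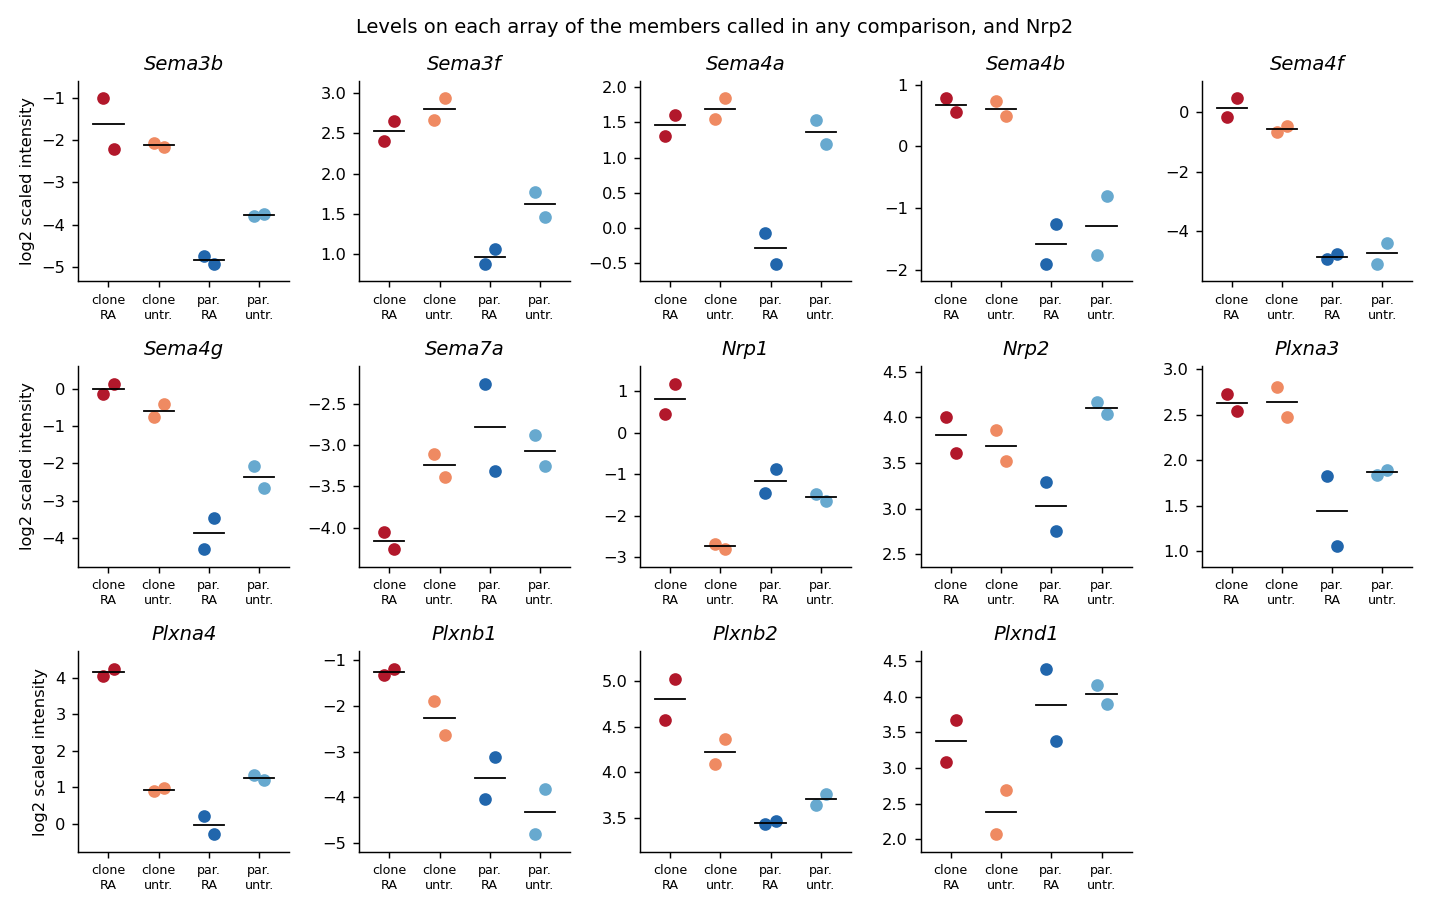
Level on each array (log2 scaled intensity, 0 is the array's 75th percentile) of the 13 members called in any comparison and of Nrp2, in the clone with RA, the untreated clone, parental cells with RA and untreated parental cells (par., parental; untr., untreated). Points are arrays and black bars are means of 2; Sema4f separates the lines in both treatments, and Nrp1 and Plxna4 are highest in the clone with RA. Axes differ between panels.

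Among the secreted ligands, Sema3b and Sema3f were higher in the clone. Both bind neuropilins and repel axons, and Sema3f is the main ligand of Nrp2. Sema3b read -1.01 and -2.21 in the clone with RA, -2.06 and -2.15 in the untreated clone, -4.73 and -4.93 in parental cells with RA and -3.79 and -3.75 in untreated parental cells. Each clone array was above each parental array, and the arrays of the clone with RA were the farthest apart. The clone difference was 3.22 ± 0.41 with RA (limma adjusted p = 0.00217) and 1.66 ± 0.41 untreated (adjusted p = 0.0474). Without replicate 1 of the clone with RA, the difference with RA was 2.62 (adjusted p = 0.00256). Normexp background correction reduced it to 1.76 (adjusted p = 0.0481) and reduced the untreated difference to 0.53 (adjusted p = 0.787), and the untreated call was lost in 8 of 17 alternatives, among them the fit without any 1 parental array.

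Sema3f read 2.40 and 2.66 in the clone with RA, 2.66 and 2.94 in the untreated clone, 0.87 and 1.06 in parental cells with RA and 1.77 and 1.46 in untreated parental cells. The lines did not overlap in either treatment. It was higher in the clone by 1.56 ± 0.28 with RA (limma adjusted p = 0.00856) and 1.18 ± 0.28 untreated (adjusted p = 0.0429). The untreated call was kept in 7 of 17 alternatives and lost with normexp, with the series table, with slide side as a block and without any 1 array other than those of the clone with RA. The other tested secreted members, Sema3g and Sema3a, were not called in any comparison. Sema3a, the classical repellent of sensory and sympathetic axons, was close to background, and its clone difference of -0.26 ± 0.88 with RA had the widest error of the tested members.

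The membrane-spanning class 4 semaphorins held the largest differences. Sema4f, a semaphorin of neurons, read -0.17 and 0.45 in the clone with RA, -0.69 and -0.49 in the untreated clone, -4.92 and -4.76 in parental cells with RA and -5.09 and -4.38 in untreated parental cells. The lines were far apart in both treatments, and within a line the RA and untreated arrays lay close together. In the clone Sema4f was 31.6-fold higher with RA (4.98 ± 0.36, limma adjusted p = 0.00027) and 17.7-fold higher untreated (4.14 ± 0.36, adjusted p = 0.000789). The untreated fold includes 1 parental array on which the probe was not well above background. The call held under each of the 16 alternatives that could be run for it, with the untreated difference between 2.01 and 4.50. The lower bound, and the lowest difference with RA, 3.17, came from normexp background correction.

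Sema4g, which signals through Plxnb2 in the mouse cerebellum, read -0.14 and 0.15 in the clone with RA, -0.76 and -0.41 in the untreated clone, -4.31 and -3.46 in parental cells with RA and -2.08 and -2.66 in untreated parental cells. The clone was above the parental line throughout, and the parental arrays with RA were the lowest. The clone difference was 3.89 ± 0.39 with RA (limma adjusted p = 0.000859) and 1.79 ± 0.39 untreated (adjusted p = 0.0311). The untreated call was lost in 7 of 17 alternatives, with adjusted p values up to 0.198: normexp, quantile normalization, no filter on dim probes and the fit without any 1 untreated array. Within the clone the RA difference was 0.59 ± 0.39 (adjusted p = 0.43), and within the parental line it was -1.52 ± 0.39 (adjusted p = 0.129). The difference between these RA differences, 2.10 ± 0.55, was not called (adjusted p = 0.166).

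Sema4b, another transmembrane class 4 member, read 0.78 and 0.56 in the clone with RA, 0.74 and 0.49 in the untreated clone, -1.90 and -1.26 in parental cells with RA and -1.75 and -0.80 in untreated parental cells. RA and untreated arrays overlapped within each line, while the lines did not overlap. It was higher in the clone by 2.25 ± 0.40 with RA (limma adjusted p = 0.00851) and 1.89 ± 0.40 untreated (adjusted p = 0.0294). The untreated call was also lost without replicate 1 of the untreated parental cells.

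Sema4a, known from immune cells and the retina, was called between the lines with RA and not untreated. It read 1.31 and 1.61 in the clone with RA, 1.55 and 1.84 in the untreated clone, -0.06 and -0.51 in parental cells with RA and 1.54 and 1.19 in untreated parental cells. Parental cells with RA were the only group apart from the others. The clone difference was 1.75 ± 0.31 with RA (limma adjusted p = 0.00802) and 0.33 ± 0.31 untreated (adjusted p = 0.584). The RA difference in the parental line was -1.65 ± 0.31 and missed the threshold (adjusted p = 0.0635), and the difference between the lines' RA differences was 1.42 ± 0.43 (adjusted p = 0.218). Sema4c, the partner of Plxnb2 in neural development, and Sema4d, the ligand of Plxnb1, were not called in any comparison. Their clone differences with RA were -0.39 ± 0.28 for Sema4c and 0.45 ± 0.33 for Sema4d.

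Class 6 semaphorins, transmembrane ligands of class A plexins, were not called in any comparison. Sema6a, which binds Plxna4 and Plxna2, had the largest of their differences, with 0.73 and 1.77 in the clone with RA against -0.65 and -0.30 in the untreated clone, a difference of 1.73 ± 0.52 (limma adjusted p = 0.116). The RA arrays of the clone lay above its untreated arrays, but far from each other. Sema7a, the lipid-anchored semaphorin that acts through integrins and Plxnc1, read -4.06 and -4.26 in the clone with RA, -3.11 and -3.39 in the untreated clone, -2.26 and -3.31 in parental cells with RA and -2.88 and -3.25 in untreated parental cells. It was the 1 member called lower in the clone with RA (-1.37 ± 0.40, limma adjusted p = 0.0465). Leaving out any 1 array other than replicate 2 of the parental cells with RA ended that call, which without replicate 1 of the clone with RA had an adjusted p of 0.0867. The difference was -0.85 (adjusted p = 0.149) without replicate 1 of the parental cells with RA, -0.53 (adjusted p = 0.581) with normexp and -2.30 (adjusted p = 0.0429) with quantile normalization.

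**Figure D2:**
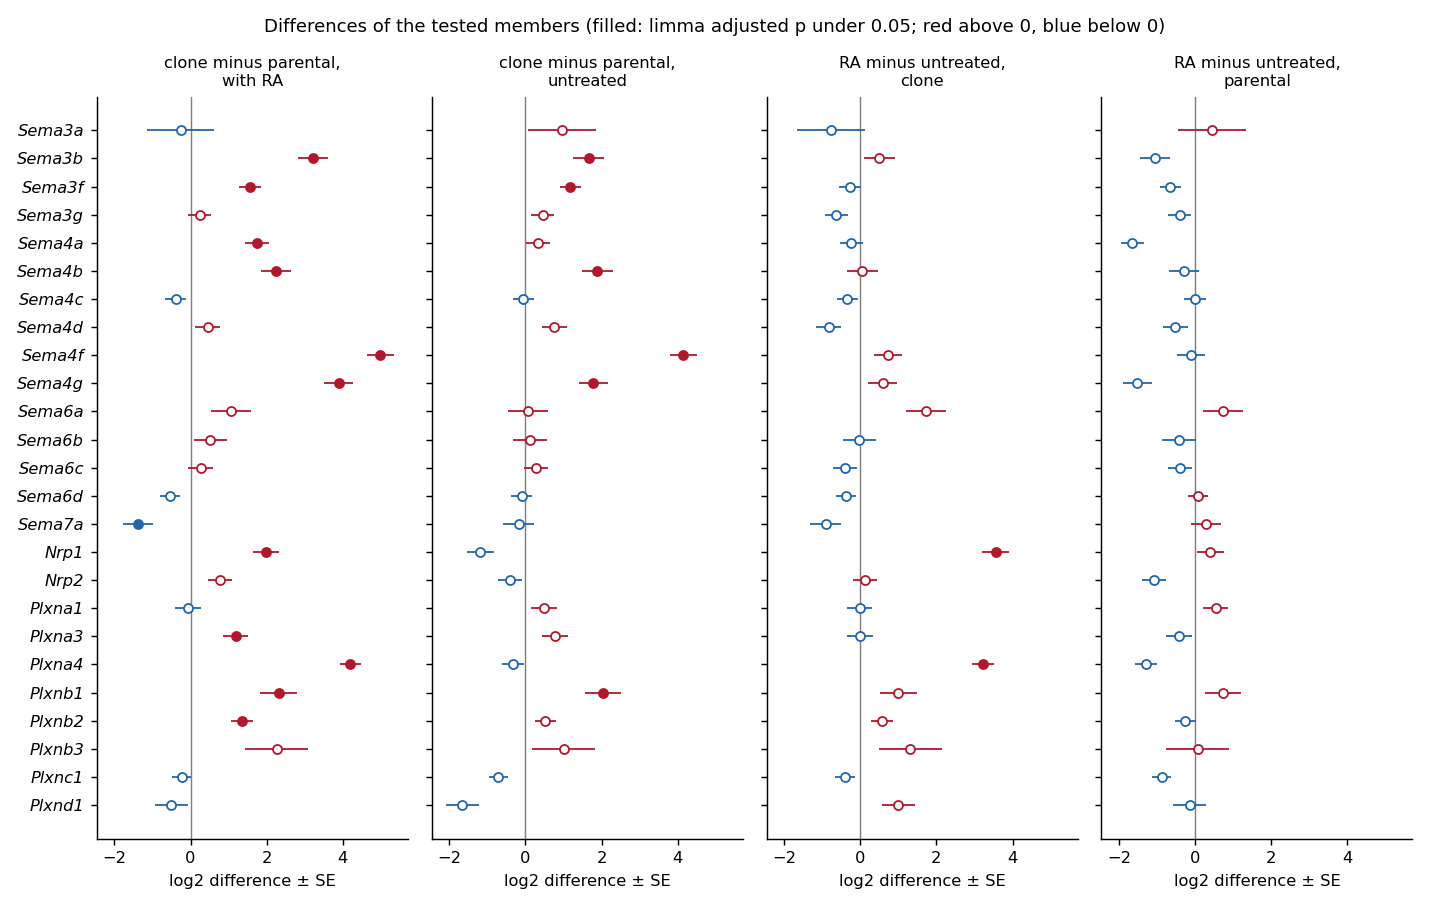
Log2 differences ± SE of the 25 tested members for the clone minus parental cells with RA and untreated, and for RA minus untreated within each line, from the limma fit with 2 arrays per group. Filled points were called at an adjusted p below 0.05; filled points lie mainly in the first 2 panels, and Nrp1 and Plxna4 are the filled points for RA in the clone.

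Few members were called for RA, and those called were a co-receptor and a receptor, Nrp1 and Plxna4. Limma called 2 of the 25 members higher with RA in the clone and 0 lower. Of all features, 2.58% were called higher and 2.05% lower. At an unadjusted p below 0.05, 1 member, Sema4d, was lower, as were 2799 of all 26262 features. In the parental line limma called 0 members in either direction, where 0.529% of all features were called higher and 0.59% lower. At an unadjusted p below 0.05, 6 members were lower with RA in the parental line and 0 were higher: Sema3b, Sema4a, Sema4g, Nrp2, Plxna4 and Plxnc1. At that threshold 1933 of all 26262 features were lower and 1853 higher. Of the 6 members, Sema4a and Plxna4 were called lower when limma modelled the spread with a trend and robust estimation. The median RA difference over the tested members was -0.01 for the clone and -0.30 for parental cells, against 0.02 over all features in both lines. Averaged over the lines, Nrp1 and Plxna4 were called higher and limma called 0 members lower. Of all features, 3.13% were called higher and 2.7% lower. At an unadjusted p below 0.05, 4 members were lower, as were 2963 of all 26262 features. The average call of Nrp1 was kept in 11 of 16 alternatives and that of Plxna4 in 4 of 16, being lost with normexp, with the series table, with no filter, with slide side as a block and without any 1 array.

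Nrp1, the neuropilin that binds Sema3a and also serves as a co-receptor for vascular endothelial growth factor, rose with RA in the clone. It read 0.46 and 1.18 in the clone with RA, -2.67 and -2.80 in the untreated clone, -1.45 and -0.87 in parental cells with RA and -1.47 and -1.64 in untreated parental cells. The untreated clone was the lowest group, the clone with RA the highest, and the parental arrays lay between them in both treatments. RA raised Nrp1 11.8-fold in the clone (3.56 ± 0.35, limma adjusted p = 0.0117), against a difference of 0.39 ± 0.35 in the parental line (adjusted p = 0.707). The difference between these RA differences was 3.16 ± 0.50 and missed the threshold (adjusted p = 0.0705). The window printed above for Nrp1 is the one with the single half-site, and 6 of the other members with a window also held one. The half-site was in 18.9% of the members' windows and 16.3% of all windows. No window was available for Plxna4, and the part of the half-site in any RA difference was not tested.

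Set between the lines, the Nrp1 differences had opposite signs with RA and untreated. Nrp1 was higher in the clone with RA (1.98 ± 0.35, limma adjusted p = 0.00834), and its untreated clone difference was -1.18 ± 0.35 (adjusted p = 0.0887). The RA call in the clone ended without either untreated clone array and when only the 2 clone groups were fitted. It also ended with no filter on dim probes (limma adjusted p = 0.0576). Without replicate 1 of the clone with RA the RA difference was 3.92 (adjusted p = 0.0169).

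Nrp2, the neuropilin that prefers Sema3f, was not called in any comparison. Its brighter probe read 4.00 and 3.61 in the clone with RA, 3.86 and 3.52 in the untreated clone, 3.29 and 2.76 in parental cells with RA and 4.17 and 4.04 in untreated parental cells. Parental cells with RA were the lowest group. Its RA difference was 0.11 ± 0.32 for the clone (limma adjusted p = 0.865) and -1.08 ± 0.32 for the parental line (adjusted p = 0.176). The other Nrp2 probe, designed to a different RefSeq transcript, gave a parental RA difference of 0.60 ± 0.36, so the 2 probes differed in sign.

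Among the class A plexins, which signal for neuropilins, Plxna4 had the largest RA difference. Plxna4 pairs with Nrp1 in the response of sympathetic and sensory axons to Sema3a, and also binds class 6 semaphorins directly. It read 4.06 and 4.26 in the clone with RA, 0.89 and 0.97 in the untreated clone, 0.21 and -0.30 in parental cells with RA and 1.33 and 1.19 in untreated parental cells. The clone with RA stood far above the other 3 groups, and parental cells with RA were the lowest. RA raised Plxna4 9.34-fold in the clone (3.22 ± 0.29, limma adjusted p = 0.0117), while the RA difference in the parental line was -1.30 ± 0.29 (adjusted p = 0.0915).

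Plxna4 was also the 1 member whose RA difference differed between the lines by a test of that difference (4.52 ± 0.41, limma adjusted p = 0.0181), where 0.122% of all features were called higher and 0.0838% lower. In the clone with RA Plxna4 was 18.4-fold above parental cells with RA (4.20 ± 0.29, adjusted p = 0.000238), and untreated the clone difference was -0.32 ± 0.29 (adjusted p = 0.563). A second probe of Plxna4, well above background on both arrays of the clone with RA and on none of the other 6, was at least 8.20-fold higher with RA in the clone and at least 7.83-fold higher in the clone with RA than in parental cells with RA. These bounds set the dim arrays at the lowest signal that was well above background on them. The RA call in the clone ended under the same alternatives as that of Nrp1, with a limma adjusted p of 0.0576 with no filter on dim probes. The difference between lines was lost without any 1 array of the untreated or the parental groups. Without replicate 1 of the clone with RA, that difference was 4.62 (adjusted p = 0.0266).

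**Figure D3:**
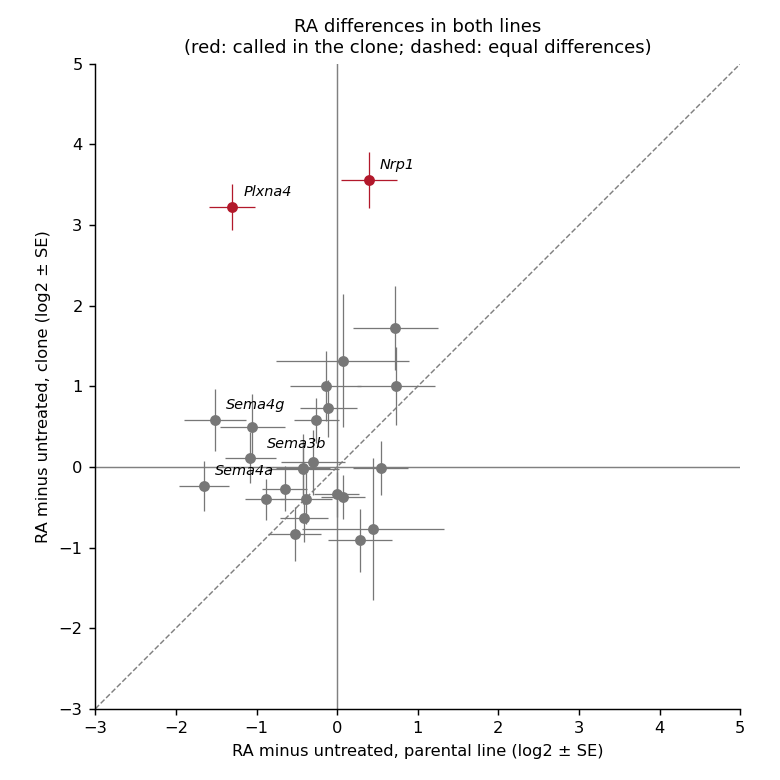
RA minus untreated in the clone (vertical axis) against RA minus untreated in the parental line (horizontal axis) for the 25 tested members, log2 ± SE, with the line of equal differences dashed. Nrp1 (3.56 for the clone, 0.39 for parental cells) and Plxna4 (3.22 and -1.30) stand above the other members, and the 5 members farthest above the dashed line are named.

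Plxna3, which works with Nrp2 for Sema3f, read 2.73 and 2.54 in the clone with RA, 2.80 and 2.48 in the untreated clone, 1.83 and 1.06 in parental cells with RA and 1.84 and 1.90 in untreated parental cells. The clone arrays lay above the parental arrays in both treatments. Its clone difference was 1.19 ± 0.33 with RA (limma adjusted p = 0.0434) and 0.77 ± 0.33 untreated (adjusted p = 0.219). Without replicate 1 of the clone with RA the first of these was 1.09 (adjusted p = 0.133), and its call was kept in 7 of 17 alternatives. Plxna1, a receptor shared by several class 3 and class 6 semaphorins, was not called in any comparison, with a clone difference of -0.07 ± 0.34 with RA.

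Class B plexins bind class 4 semaphorins and activate RhoA through the exchange factors Arhgef11 and Arhgef12. Plxnb1, the receptor of Sema4d, read -1.34 and -1.19 in the clone with RA, -1.91 and -2.63 in the untreated clone, -4.05 and -3.12 in parental cells with RA and -4.81 and -3.82 in untreated parental cells. The clone lay above the parental line in both treatments. Clone minus parental was 2.32 ± 0.48 with RA (limma adjusted p = 0.015) and 2.04 ± 0.48 untreated (adjusted p = 0.0419). Normexp background correction reduced the untreated difference to 0.57 (adjusted p = 0.537) and that with RA to 1.47 (adjusted p = 0.0229). The untreated call was kept in 7 of 16 alternatives, and the call with RA was lost in 1, without replicate 1 of the parental cells with RA (adjusted p = 0.0774).

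Plxnb2, the receptor of Sema4c and Sema4g, read 4.57 and 5.02 in the clone with RA, 4.08 and 4.36 in the untreated clone, 3.43 and 3.46 in parental cells with RA and 3.64 and 3.76 in untreated parental cells. All clone arrays were above all parental arrays. The clone difference was 1.35 ± 0.28 with RA (limma adjusted p = 0.0154) and 0.52 ± 0.28 untreated (adjusted p = 0.327). Plxnb3 was dim in the parental line, with 1 parental array above background, and its clone difference of 2.26 ± 0.83 with RA was not called (adjusted p = 0.0951).

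Plxnd1, the receptor of Sema3e known for guiding vessels and axons, ran the other way from Plxna3, Plxna4, Plxnb1 and Plxnb2. It read 3.09 and 3.67 in the clone with RA, 2.07 and 2.69 in the untreated clone, 4.40 and 3.38 in parental cells with RA and 4.16 and 3.90 in untreated parental cells. The lines overlapped with RA and did not overlap untreated. Averaged over treatments the clone difference was -1.08 ± 0.31 (limma adjusted p = 0.0388), and untreated it was -1.66 ± 0.43 (adjusted p = 0.0608). The average was no longer called without replicate 1 of the clone with RA or with slide side as a block, among other alternatives. Plxnc1, the receptor of Sema7a, was not called, with an average clone difference of -0.47 ± 0.18 (limma adjusted p = 0.0933). A dimmer probe of Plxnc1 gave -1.08 ± 0.24 in a fit over probes, with each parental array above each clone array.

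**Figure D4:**
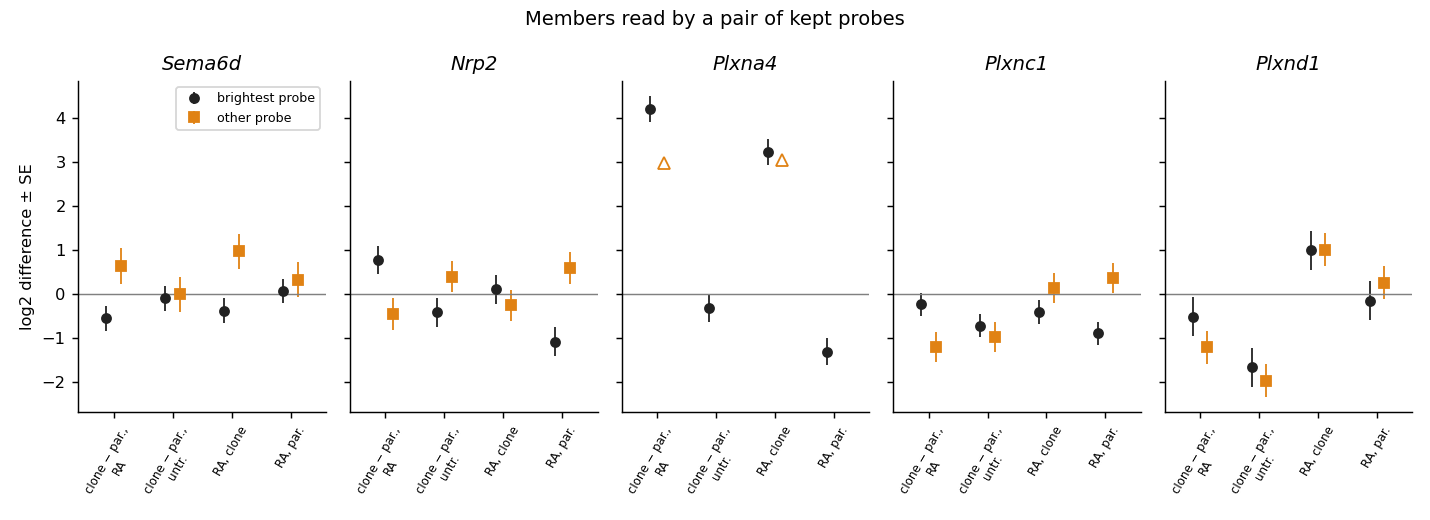
Log2 differences ± SE of both kept probes of the 5 members read by a pair of them, for the clone minus parental cells with RA and untreated, and for RA in the clone and in parental cells (par., parental; untr., untreated). Circles are the brightest probe, used in the text, and squares the other; open triangles are lower bounds of the second Plxna4 probe, which has no point where both groups were not well above background. The Plxna4 bound for RA in the clone lies close to the brightest probe, and the Nrp2 probes lie on opposite sides of 0 for RA in parental cells.

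Probes of a gene can read different transcripts, and 5 members had a pair of probes above the brightness filter. In a fit over all kept probes, the Plxnd1 differences were 1.00 ± 0.44 and 1.01 ± 0.38 for RA in the clone. For the clone difference with RA they were -0.51 ± 0.44 and -1.21 ± 0.38, and for RA in the parental line -0.14 ± 0.44 and 0.26 ± 0.38, on opposite sides of 0. The Plxnc1 pair differed, with RA differences in the parental line of -0.88 ± 0.26 for the brighter probe and 0.37 ± 0.34 for the other. The Sema6d pair differed in the clone, with RA differences of -0.37 ± 0.28 and 0.98 ± 0.40. No test was made between probes.

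Partners that act beside the receptors were followed as a list of 31 co-receptors and other receptors or ligands, of which 23 were tested. With RA, 5 were called higher in the clone and 2 lower, where 12.9% of all features were called higher and 10.2% lower. Untreated, 2 were higher and limma called 0 lower, where 6.13% of all features were called higher and 3.69% lower. At an unadjusted p below 0.05, 1 partner was lower untreated, as were 2394 of all 26262 features. Itga9, an integrin subunit, read 0.31 and -0.11 in the clone with RA, -0.07 and -0.23 in the untreated clone, -7.30 and -8.36 in parental cells with RA and -5.41 and -4.91 in untreated parental cells. It was not well above background in parental cells with RA, and was at least 107.1-fold higher in the clone with RA (limma adjusted p = 0.0001). Untreated, its clone difference was 5.01 ± 0.41 (adjusted p = 0.00068). Of the untreated parental arrays only replicate 2 read Itga9 well above background, so the untreated difference includes 1 array that did not.

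Sdc3, a heparan sulphate proteoglycan of neurons, was also higher in the clone with RA (5.56 ± 0.52, limma adjusted p = 0.00069) and untreated (4.01 ± 0.52, adjusted p = 0.00456). Itga1, the integrin subunit through which Sema7a acts with Itgb1, was higher in the clone with RA (4.13 ± 0.39, adjusted p = 0.00068) and was the 1 listed partner called for RA in the clone (2.68 ± 0.39, adjusted p = 0.0217). For RA in the clone, 2.58% of all features were called higher and 2.05% lower. Ptk7, a receptor-like protein of neural crest migration, was 1.85 ± 0.36 higher in the clone with RA (adjusted p = 0.0115). Tyrobp, a signalling adaptor known from myeloid cells, fell in the clone, with an average difference of -2.69 ± 0.46 (limma adjusted p = 0.00553). With RA in the parental line 1 partner, Itga9, was lower and limma called 0 higher, where 0.59% of all features were called lower and 0.529% higher. Itga9 was lower by 2.80-fold or more, with the untreated array that did not read it well above background taken at its measured level. At an unadjusted p below 0.05, 0 partners were higher, against 1853 of all 26262 features. Averaged over the lines Mst1r, a receptor tyrosine kinase that binds plexins, fell by 1.07 with RA (adjusted p = 0.0343). It was the 1 partner called for that average, where 3.13% of all features were called higher and 2.7% lower. For the difference between the lines' RA differences limma called 0 of the 23 partners, where 0.122% of all features were called higher and 0.0838% lower. At an unadjusted p below 0.05, 3 were above 0 and 1 below it, against 1923 and 1716 of all 26262 features.

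All 45 listed intracellular effectors were tested. With RA, 11 were called higher in the clone and 7 lower, where 12.9% of all features were called higher and 10.2% lower. Untreated, 4 were higher and limma called 0 lower, where 6.13% of all features were called higher and 3.69% lower. At an unadjusted p below 0.05, 6 effectors were lower untreated, as were 2394 of all 26262 features. The 4 untreated calls were Cdk5r1, the activator of the Cdk5 kinase (1.53 ± 0.31, limma adjusted p = 0.025), Arhgef11, the RhoA exchange factor of class B plexins (1.24 ± 0.25, adjusted p = 0.0262), Map1b, a microtubule-associated protein (1.33 ± 0.30, adjusted p = 0.0374), and Dpysl3, a collapsin response mediator (1.23 ± 0.28, adjusted p = 0.0377). With RA the smallest adjusted p values were those of Dpysl3 (2.61 ± 0.28, 0.00115), Arhgef11 (2.15 ± 0.25, 0.0017), Pak1, a kinase downstream of Rac1 (2.21 ± 0.31, 0.00347), and Cdk5r1 (1.84 ± 0.31, 0.00676). Rac1 itself fell in the clone, with an average difference of -1.42 ± 0.22 (limma adjusted p = 0.00368). The median clone difference of the effectors was 0.16 with RA and 0.06 untreated.

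Few effectors were called for RA, as were few of all features. For the clone these shares were 2.58% higher and 2.05% lower, for parental cells 0.529% and 0.59%, and averaged over the lines 3.13% and 2.7%. In the clone limma called 0 higher (3 at an unadjusted p below 0.05) and 2 lower: Mical1, the oxidase that takes actin filaments apart below class A plexins, by -2.01 ± 0.35 (limma adjusted p = 0.0298), and Rnd1, a GTPase that binds plexins, by -1.81 ± 0.34 (adjusted p = 0.0364). In the parental line limma called 0 higher (1 at an unadjusted p below 0.05) and 1 lower, Dpysl3 at -1.73 ± 0.28 (adjusted p = 0.0451). Averaged over the lines, 3 effectors fell with RA: Mical1 (-1.81 ± 0.24), Dpysl3 (-1.04 ± 0.20) and Msrb1, a reductase that reverses the action of Mical enzymes on actin (-1.05 ± 0.22).

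Markers of the cell lineage also differed between the groups. The summed linear level of the 15 neuroblast markers was 642 to 711 in the clone with RA, 436 to 447 in the untreated clone, 127 to 164 in parental cells with RA and 276 to 368 in untreated parental cells, so it was highest in the clone with RA and lowest in parental cells with RA. Of the 13 members called in any comparison, 6 had their highest and lowest group means in the same places: Sema3b, Sema4b, Sema4f, Sema4g, Plxna4 and Plxnb2. Of these 13, 11 were called higher in the clone with RA than in parental cells with RA. The places therefore follow in part from how the members were chosen, and the share of all features with this pattern is not given. Chgb, a granin of secretory granules, made up 18.1% to 54.7% of that sum on an array. Without it the sum was 322 to 368 in the clone with RA, 237 to 253 in the untreated clone, 104 to 105 in parental cells with RA and 159.8 to 217 in untreated parental cells. Of the 15 markers, 9 were called higher and 2 lower in the clone with RA, against 1 higher and 1 lower untreated. Of all features, 12.9% were called higher and 10.2% lower with RA, and 6.13% and 3.69% untreated. The markers thus did not move as one. Their part in the members' differences was not tested.

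Lists of other cell types were read at low sums. Of 8 Schwann cell and glial markers, 6 to 8 were above background in a group, summing to 0.857 to 0.983 in the clone with RA, 0.956 to 0.994 in the untreated clone, 1.32 to 1.62 in parental cells with RA and 1.99 to 2.11 in untreated parental cells. Of 7 endothelial markers, 4 to 5 were above background, with sums of 2.85 to 6.30, 6.17 to 7.38, 3.91 to 7.15 and 7.33 to 7.70 in the same groups, and Cdh5 and Tek in none. Of 7 fibroblast markers, 5 were above background in each group, with sums of 6.09 to 7.40, 7.07 to 12.7, 3.71 to 4.64 and 9.91 to 17.8, and Lum and Thy1 in none. Glial sums were thus highest in untreated parental cells, while the fibroblast sums of untreated parental cells and the untreated clone overlapped. The fibroblast list did not move as one. Fbln1 read 4.06 and 3.19 in untreated parental cells and 3.52 and 2.59 in the untreated clone. Col1a1 read -3.70 and -4.32 against -1.61 and -1.49 in the same groups. Of the 6 microglial and blood markers on the array, 3 to 5 were above background, with sums of 1.61 to 2.00, 1.83 to 1.96, 0.787 to 0.841 and 2.05 to 2.39, and Cx3cr1 in none. Of 8 hippocampal markers, 2 to 5 were above background, with sums of 0.419 to 0.680, 0.364 to 0.525, 0.590 to 0.905 and 0.565 to 0.863. The part of these lists in the members' differences was not tested.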

How the data were processed

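RNA of 2 arrays per group was read on 8 one-colour Cy3 Agilent arrays (design 028005). The deposited scanner files hold intensity values that Feature Extraction 10.7.3.1 background-subtracted and detrended within each array, with no scaling between arrays, per the file headers. The deposited series table holds log2 values that equal the log2 intensity minus a constant per array (largest departure 1.95e-06), and was used as an alternative. Control spots and outlier spots were left out and spots of a probe averaged. Log2 intensities were scaled by each array's 75th percentile. Of 55681 probes, 36636 passed a filter that asked for 2 or more of the 8 arrays to be well above background. The brightest kept probe stood for a gene, joined by accession to RefSeq symbols (15184 of 26262 features; the others kept their accession). One limma 3.58.1 fit (R 4.3.3) over all groups gave 7 comparisons with Benjamini-Hochberg adjustment over all features; 52 features had a missing value on an array, which the fit left out. The script was tested on simulated data. No depth can be given for arrays; 2 per group limits the precision.

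Members, lists and the naming rule were chosen with earlier results of these data known. The rule gives full values for members called in any comparison and for both neuropilins, and ranges or single values for the others. From each partner list it gives up to 4 called genes with the smallest adjusted p per comparison, and it names Cyp26b1. Stra6 was added as the 1 gene of the RA check list called lower with RA. Alternatives covered background correction, with normexp (offset 50) run on the median spot signal because the files hold no mean spot signal column, normalization, probe filters, variance model, arrays in the fit, side of the slide and a 2-fold minimum. Replicates were numbered in accession order and pair no samples. The file headers name mouse build mm9, and promoter coordinates are those of the RefSeq table's GRCm38.p6.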

Additional observations from a re-analysis of the deposited data

Results flagged for a closer look

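The RA difference of Plxna4 in the clone minus that in the parental line was 4.52 ± 0.41 on the log2 scale, a difference between the lines that passed its own test (limma adjusted p = 0.0181). The RA difference itself was 3.22 for the clone and -1.30 for parental cells, and both clone arrays with RA were above both untreated clone arrays. It stayed between 4.10 and 4.79 over 16 alternatives and kept its call in 8 of them. The slide row cannot be told apart from this difference. The call of this difference was lost when any 1 array of the untreated or the parental groups was left out. Groups of 2 arrays were too small to tell which array of a pair departed.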

How the results depend on the processing

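No called value changed sign in the alternatives run. Of the differences of single members recomputed, 1466 kept their side of the threshold, 117 lost it and 27 gained it. The 6 members called between the untreated lines became 2 with normexp and 1 with no filter on dim probes, and 1 to 7 with an array left out. The 12 called with RA became 6 when only the groups compared were fitted, and 9 to 10 with an array left out. For RA in the parental line, 0 became 2 with a trended, robust variance and 2 when a probe had to be above background on every array, and 0 to 1 with an array left out. For RA in the clone, 2 became 0 with no filter and 0 with only the groups compared, and 0 to 2 with an array left out. The 11 called on average in the clone became 7 to 12 with an array left out. The 2 called on average for RA became 1 with normexp, with the series table, with slide side as a block or with a 2-fold minimum, 0 with no filter, 4 with probes above background on all arrays, 5 with a trended, robust variance, and 0 to 2 with an array left out. The 1 called between the lines' RA differences became 0 with normexp or no filter, 2 with probes above background on all arrays or a trended, robust variance, and 0 to 3 with an array left out. The cause was not tested, except that a lone array in a group was assumed to vary like the other groups. Sema4f kept its clone calls throughout, as did Sema3b, Sema4b, Sema4g and Plxna4 with RA. Dim probes limit Sema3a and Plxnb3 most.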
